A study of Rattus norvegicus with 30 samples.

Results

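Cultured rat hepatocytes given chlorpromazine at 0.8 µM for 24 h were compared with cultures given only the vehicle. The comparison took the 5 arrays whose titles give 24 h and 0.8 µM and the 5 arrays of 1% DMSO whose time entry gives 24 h, which are 10 of the 30 arrays of the series. All groups used cryopreserved primary hepatocytes of male Sprague Dawley rats, of unstated age, plated on collagen with a Matrigel overlay and dosed on day 3 of culture. The treated group received chlorpromazine HCl, and the control group received the vehicle, labelled as 1% dimethyl sulfoxide (DMSO). The treated samples' titles give no DMSO content, while the protocol describes concentrated (100X) dosing solutions in 1% DMSO, so the final DMSO content of vehicle and treated wells is unclear. Each array measured RNA of 1 well. The wells are labelled as independent cultures without separate animals being named, so p-values measure the spread between cultures. Beside them stand 3 further groups of 5 arrays of the same cells: chlorpromazine at 0.8 µM and vehicle at 48 h, and chlorpromazine at 20 µM at 24 h. For 1 vehicle array (replicate 2) the title reads 2 h but the entry for time reads 24 h, and the latter decided its group.

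Chlorpromazine is a phenothiazine antipsychotic that blocks dopamine receptors and is cleared by liver cytochrome P450 enzymes, those of the CYP2D family among them. In the clinic it is known for cholestatic liver injury, in which bile flow from hepatocytes is impaired. Hepatocytes make bile acids from cholesterol, with Cyp7a1 and Cyp8b1 as controlling hydroxylases, and pump them into bile through the bile salt export pump Abcb11. Many foreign planar molecules act on hepatocytes through the aryl hydrocarbon receptor (AhR), a ligand-activated transcription factor that moves to the nucleus, pairs with ARNT and binds DNA with the core GCGTG. Its best known targets are Cyp1a1 and Cyp1a2, and the quinone reductase Nqo1 is a target both of AhR and of the oxidative stress factor NRF2.

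The 250 bases upstream of the annotated start are printed for Hmgn3 and Nqo1, whose rises kept their call under every alternative tried, and for Cyp1a2, which rose beside them. Cyp1a1 also kept its call under every alternative, but the sequence reference used here has no entry for it. The sequences are from RefSeq on build GRCr8, written 5′ to 3′ on the gene's strand, with GCGTG (or CACGC, the same motif on the other strand) in capitals. The Hmgn3 window is chr8:92939165-92939414 on the minus strand, that of Nqo1 is chr19:52220268-52220517 on the minus strand, and that of Cyp1a2 is chr8:66978150-66978399 on the minus strand.
Hmgn3: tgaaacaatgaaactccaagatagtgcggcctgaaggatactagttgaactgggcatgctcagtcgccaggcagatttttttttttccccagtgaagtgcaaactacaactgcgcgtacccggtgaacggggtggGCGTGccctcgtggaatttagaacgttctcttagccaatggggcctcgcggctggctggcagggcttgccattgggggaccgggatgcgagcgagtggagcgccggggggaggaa
Nqo1: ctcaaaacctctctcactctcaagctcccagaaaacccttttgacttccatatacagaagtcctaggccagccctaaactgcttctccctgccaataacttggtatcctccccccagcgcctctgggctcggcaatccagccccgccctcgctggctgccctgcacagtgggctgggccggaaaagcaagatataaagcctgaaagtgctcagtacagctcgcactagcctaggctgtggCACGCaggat
Cyp1a2: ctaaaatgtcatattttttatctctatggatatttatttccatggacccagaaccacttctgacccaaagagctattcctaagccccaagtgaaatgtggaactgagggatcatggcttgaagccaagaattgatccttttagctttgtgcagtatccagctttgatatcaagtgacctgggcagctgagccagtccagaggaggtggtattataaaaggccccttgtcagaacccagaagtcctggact
Hmgn3 holds the motif 115 bases before the start, Nqo1 holds it 10 bases before the start on the other strand, and the Cyp1a2 window holds none. Of all 33469 windows of this length in the reference, of genes tested here or not, 25.9% hold the motif on either strand. Among the genes that changed and have a window, it is found in 14 of 38 higher genes (36.8%) and 13 of 36 lower genes (36.1%). The share over the tested genes alone was not counted, so the changed genes cannot be compared with a like set. A match is a description of the letters and not of binding.

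The arrays carried the transcripts of hepatocytes. All 13 hepatocyte markers passed the filter on dim signals, with a median log2 signal of 16.3 in the vehicle group against 10.5 over all tested genes. The medians of the marker lists of Kupffer cells, stellate cells, endothelial cells, cholangiocytes, lymphocytes and erythroid cells lay between 8.33 and 11.4, and 0 of their members changed. In RNA from whole wells, fewer cells of a type and less RNA per cell cannot be told apart. Median signals of the 10 arrays ran from 388 to 434, and each array correlated with those of its own group at 0.965 to 0.972 on average and with those of the other group at 0.965 to 0.970. The first 2 principal components held 15.6% and 14.2% of the variance, and neither separated the groups. Vehicle replicate 5 lay apart on the first (-31.4) and vehicle replicate 4 on the second (-36.8). Vehicle replicate 2 had a mean correlation of 0.969 with its group, inside the range of the others.

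At 0.8 µM and 24 h few transcripts changed, and most by little. Of 11503 named genes tested, 95 changed (0.826%), where changed means an adjusted p under 0.05 in limma with Benjamini-Hochberg adjustment over all genes. Of these, 46 were higher (0.400%) and 49 lower (0.426%). The median size of their change was 0.31 on the log2 scale, and 4 higher and 5 lower genes changed by at least 1.5-fold, and 1 and 3 by at least 2-fold. In 72 of the 95 (38 that rose and 34 that fell) every treated array lay beyond every vehicle array on one side, and over all genes such a gap was found for 257 (2.23%). An unadjusted p under 0.05 was reached by 1354 genes (11.8%), 715 higher (6.22%) and 639 lower (5.56%), and 52.0% of all changes lay above 0. When all 31042 probe sets were tested without a filter or a choice of 1 per gene, 34 changed (0.110%), 13 higher and 21 lower.

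The number of calls rested on single cultures and on the spread model. It was 16 without vehicle replicate 4, 16 without treated replicate 3, 21 without treated replicate 2, 34 without treated replicate 4, 38 without treated replicate 5, 46 without vehicle replicate 5, 62 without vehicle replicate 2 and 147 without treated replicate 1. Without vehicle replicates 4 and 5 together it was 11, and with the spread taken from these 10 arrays alone it was 7. Of the 94 changed genes known by a symbol, 11 kept their call without any single array: Hmgn3, Cyp1a1, Nqo1, Il1r1 and H2az1 among the higher genes, and Cyp8b1, Cyp2d3, RT1-S3, Lrrc8d, Kank1 and Synrg among the lower. Only Hmgn3, Cyp1a1 and Nqo1 kept it in all 28 alternatives run for them. Each of the 94 had an exact two-sided permutation p under 0.05 on its own, and 72 had the smallest value that 5 against 5 arrays can give (0.00794). That value is reached only where the arrays of the groups do not overlap, as for 257 of all genes (2.23%). The permutations used the same arrays that chose the genes, so they are no separate support for the calls.

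**Figure D1:**
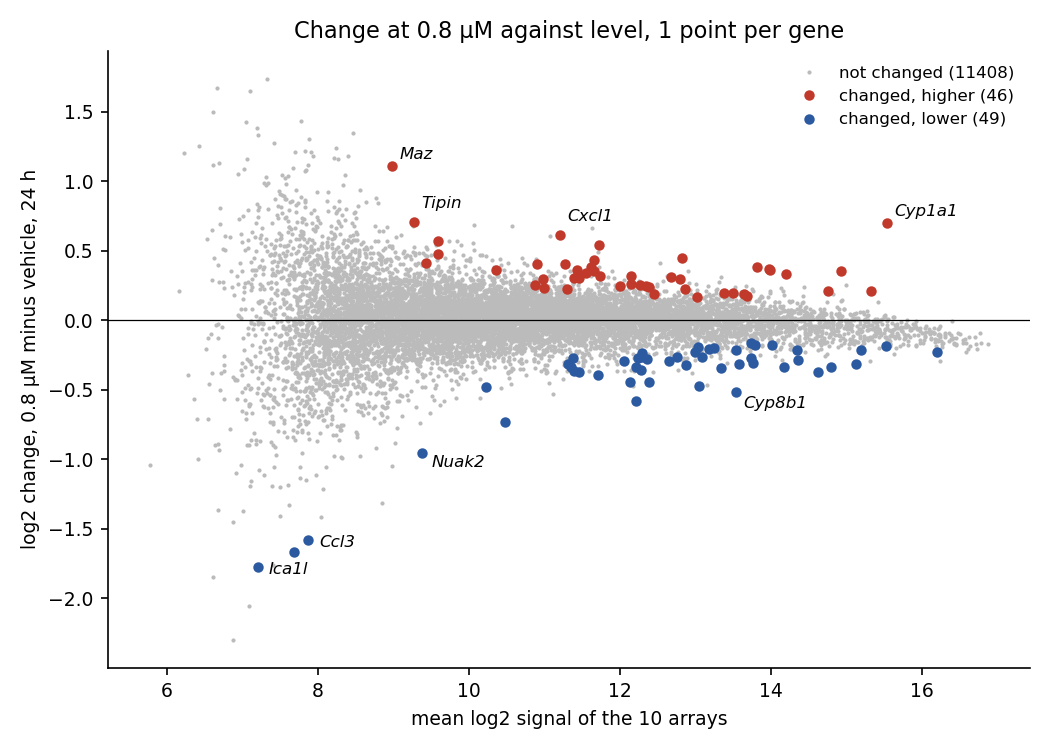
Log2 change (0.8 µM minus vehicle at 24 h, vertical axis) against the mean log2 signal of the 10 arrays (horizontal axis), 1 point per tested gene. The 46 higher genes (red) and 49 lower genes (blue) lie mostly at high signal. By mean signal in the vehicle arrays, 29 of the 95 are in the highest 10% of genes. The lowest 10%, where the scatter of all genes is widest, holds 1.

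Some targets of AhR rose. Of 6 measured members of the AhR list, 3 rose and 0 fell, where 0.400% of all genes rose and 0.426% fell. The list's median change was 0.22 against 0.01 over all genes. Cyp1a1, the P450 that oxidises polycyclic aromatic compounds, was at log2 signals of 15.09, 15.21, 15.23, 15.33 and 15.08 in the vehicle cultures and at 15.75, 15.86, 15.81, 16.15 and 15.87 in the treated ones. Every treated culture lay above every vehicle culture, and Cyp1a1 rose 1.63-fold (0.70 ± 0.09, log2 change ± SE, limma adjusted p = 5.47e-05). Nqo1, which reduces quinones, was at 14.80, 14.74, 14.66, 14.71 and 14.84 in vehicle and at 15.23, 15.02, 15.08, 15.13 and 15.06 in treated cultures. The groups did not overlap, and it rose 1.28-fold (0.35 ± 0.05, limma adjusted p = 0.000486). Cyp1a2, the aromatic amine oxidising partner of Cyp1a1 in liver, was at 14.03, 13.98, 14.07, 14.03 and 14.07 in vehicle and at 14.55, 14.28, 14.26, 14.28 and 14.50 in treated cultures. Treated replicates 1 and 5 stood above the other treated cultures, all 5 above vehicle, and the rise was 1.26-fold (0.33 ± 0.07, limma adjusted p = 0.0248). The call of Cyp1a2 was lost without vehicle replicate 4 (0.33, adjusted p = 0.0654) and without treated replicate 5 (0.30, adjusted p = 0.0607). The other measured AhR targets did not pass: Tiparp, a poly-ADP-ribose polymerase, was at 0.11 ± 0.10 (adjusted p = 0.74), Cyp1b1 at -0.09 ± 0.25 (adjusted p = 0.94) and Aldh3a1, which was dim, at -0.03 ± 0.40 (adjusted p = 0.99). Cyp1a2, Cyp1a1 and Nqo1 share the AhR list. Nqo1 is also on the list of NRF2 targets, where it was the 1 of 29 measured that changed (3.45%, against 0.826% of all genes). Which factor raised Nqo1 was not tested. Of the NRF2 targets 10 lay above 0 and 19 below, with a median of -0.05. An unadjusted p under 0.05 was reached by 3 higher ones, Nqo1 among them, and 4 lower ones. After Nqo1 the smallest p values were those of Gpx2 (0.24, adjusted p = 0.186) and Gsta3 (-0.27, adjusted p = 0.196). The glutamate-cysteine ligase subunits Gclm and Gclc were at 0.00 ± 0.06 and -0.08 ± 0.07 (adjusted p = 0.993 and 0.711). The thioredoxin reductase Txnrd1 was at -0.13 ± 0.06 (adjusted p = 0.443).

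**Figure D2:**
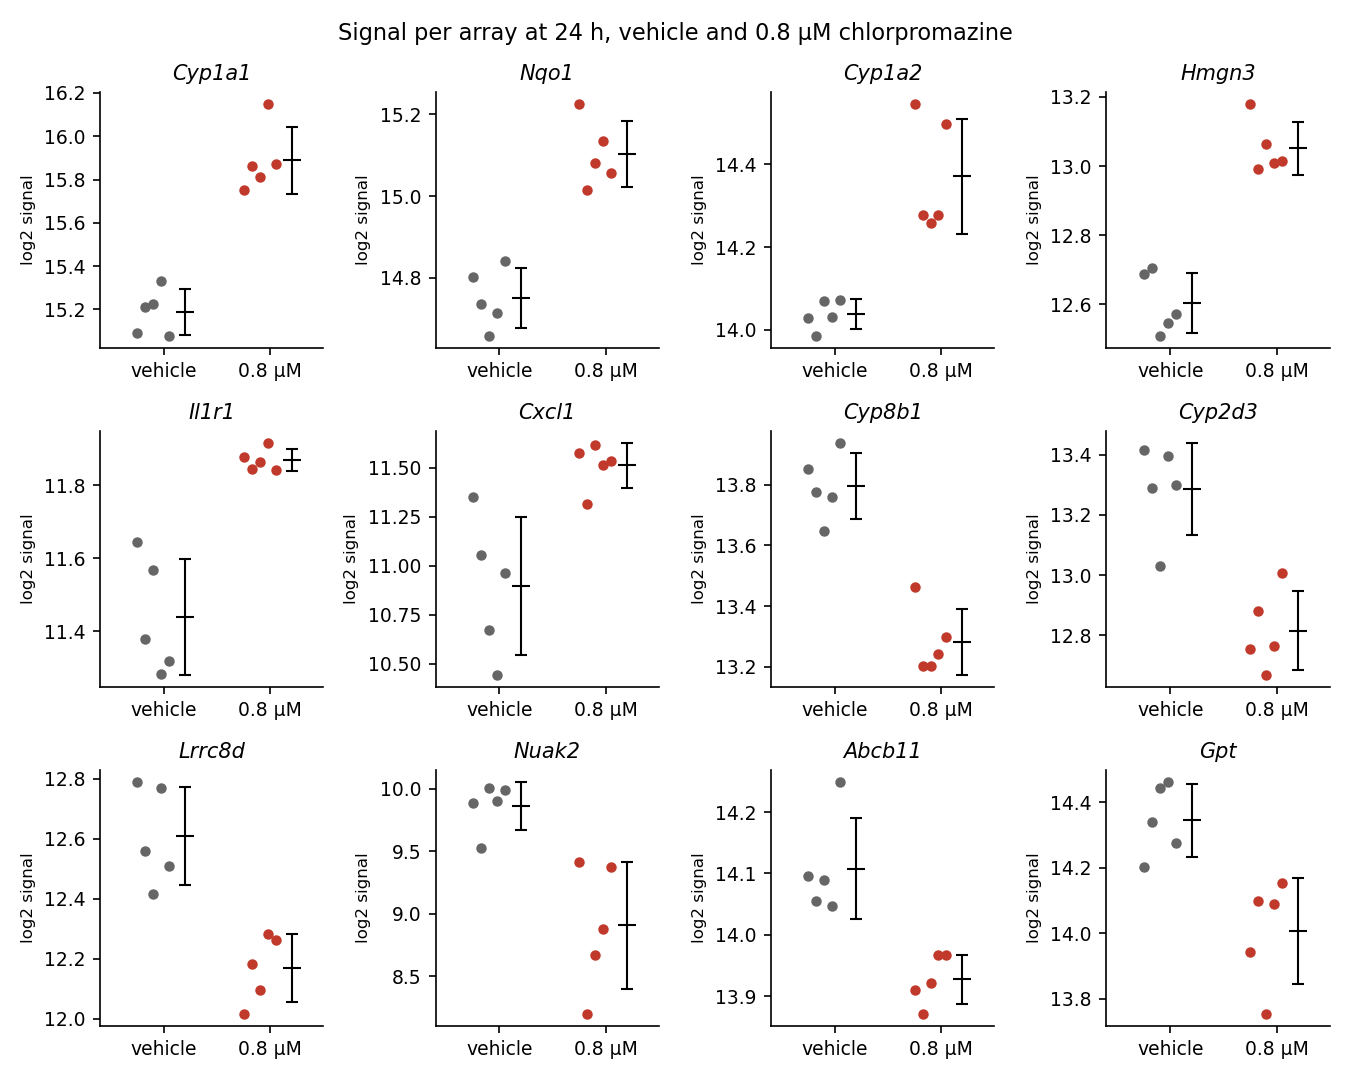
Log2 signal of 12 changed genes in each of the 5 vehicle (grey) and 5 treated (red) cultures at 24 h; bars show the mean and SD of a group, and each panel has its own vertical scale that does not start at 0. The groups do not overlap in 11 of the panels, and in Cxcl1 the lowest treated culture (11.32) lies below the highest vehicle culture (11.35).

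Receptors and a ligand of the innate response rose too. Il1r1, the signalling receptor of interleukin-1, was at 11.64, 11.38, 11.57, 11.28 and 11.32 in vehicle and at 11.88, 11.84, 11.86, 11.92 and 11.84 in treated cultures. The treated cultures were close together and all above vehicle (0.43 ± 0.07, limma adjusted p = 0.00431), though the 2 dimmer probe sets of Il1r1 gave 0.05 ± 0.19 and 0.16 ± 0.22, and the mean of all 3 was 0.21 (adjusted p = 0.373). Il1r2, the decoy receptor that binds interleukin-1 without signalling, was at 11.15, 11.70, 11.92, 11.36 and 11.12 in vehicle and at 11.77, 12.05, 11.90, 12.15 and 12.08 in treated cultures. Its groups overlapped, and the rise (0.54 ± 0.13, limma adjusted p = 0.0409) lost its call without 7 of the 10 single arrays. Cxcl1, a neutrophil-attracting chemokine, was at 11.35, 11.06, 10.67, 10.44 and 10.96 in vehicle and at 11.58, 11.32, 11.62, 11.51 and 11.54 in treated cultures. It rose 1.53-fold (0.61 ± 0.13, limma adjusted p = 0.0248), with vehicle replicate 1 inside the range of the treated cultures, and the call was lost without 5 of the 10 single arrays. These were the changed members among 22 chemokine and NF-kappaB genes, of which 3 rose, 0 fell and 16 lay above 0 (median 0.13). Over all genes 0.400% rose, 0.426% fell and 52.0% lay above 0. The NF-kappaB feedback gene Tnfaip3 (0.19 ± 0.08, adjusted p = 0.353) and Sod2 (0.13 ± 0.06, adjusted p = 0.414) did not pass. Macrophage markers stood at a summed signal of 31869 to 33515 in vehicle and 30460 to 32642 in treated cultures. Of 14 such markers on the array 12 were tested, the highest being Cd14 at a mean log2 signal of 13.9 in vehicle. Adgre1, Itgam and Ptprc were dim or filtered out.

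The smallest p of all genes belonged to Hmgn3, a nucleosome-binding protein that loosens chromatin. It was at 12.69, 12.70, 12.51, 12.54 and 12.57 in vehicle and at 13.18, 12.99, 13.06, 13.01 and 13.02 in treated cultures. The gap between the groups exceeded the range within vehicle, and the rise was 1.36-fold (0.45 ± 0.05, limma adjusted p = 8.65e-06). H2az1, the histone variant H2A.Z, rose by less but with little spread, from 14.64, 14.67, 14.65, 14.63 and 14.69 to 14.92, 14.90, 14.87, 14.77 and 14.87 (0.21 ± 0.04, limma adjusted p = 0.00431). Genes of RNA handling were also among the rises, a grouping made after their values were seen: the splicing factor subunit Sf3b6 (0.38 ± 0.08), the RNA-binding nuclear matrix protein Matr3 (0.31 ± 0.06), the helicase Ddx39a (0.26 ± 0.06), the export complex member Thoc1 (0.34 ± 0.08), the splicing regulator Tra2a (0.24 ± 0.06) and Hnrnpc (0.20 ± 0.05). In these 6 the treated cultures lay above all vehicle cultures. The second probe set of Matr3 was at -0.12 ± 0.17, and its call was lost without treated replicate 2 (0.29, adjusted p = 0.0637).

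Other rises came from genes of varied roles. Steap4, a metalloreductase of iron and copper, was at 13.80, 13.90, 13.82, 13.73 and 13.73 in vehicle and at 14.18, 14.10, 14.16, 14.21 and 14.17 in treated cultures (0.37 ± 0.08, limma adjusted p = 0.0248). Defb1, an antimicrobial beta-defensin, was at 13.84, 13.82, 13.83, 13.66 and 13.90 in vehicle and at 14.36, 14.17, 14.17, 14.04 and 14.11 in treated cultures (0.36 ± 0.08, limma adjusted p = 0.0234). Neither pair of groups overlapped, and the calls were lost without 4 and 3 of the 10 single arrays. Pisd, the mitochondrial decarboxylase that makes phosphatidylethanolamine, rose by 0.25 ± 0.06, the only change among 24 genes of phospholipid synthesis and phospholipases. Anxa7, a calcium-dependent membrane-binding annexin, rose by 0.23 ± 0.05, and its second probe set was at -0.14 ± 0.16. It was the only change among 30 cytoskeleton and dedifferentiation genes. An unadjusted p under 0.05 was reached by 7 higher and 1 lower of the 30, and by 6.22% higher and 5.56% lower of all genes. Ogt, the transferase of O-linked N-acetylglucosamine, rose by 0.31 ± 0.07, and Nfat5, the transcription factor of osmotic stress, by 0.40 ± 0.10. The second probe set of Nfat5 gave 0.39 ± 0.10, and that of the secreted hepatocyte protein Lect2, which rose by 0.21 ± 0.05, gave 0.25 ± 0.06. The calls of Pisd, Anxa7, Ogt, Nfat5 and Lect2 were lost without 8, 4, 7, 8 and 9 of the 10 single arrays.

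Some rises lay at low signal, and their calls too were lost without several of the single arrays. Maz, a zinc finger transcription factor, was at 8.88, 8.33, 7.81, 8.09 and 9.07 in vehicle and at 9.84, 9.44, 9.73, 9.74 and 8.97 in treated cultures (1.11 ± 0.25, limma adjusted p = 0.0317). Treated replicate 5 lay below vehicle replicate 5, and the call was lost without 6 of the 10 single arrays. Tipin, a replication fork protein, was at 8.36, 8.91, 8.58, 9.39 and 9.35 in vehicle and at 9.48, 9.65, 9.89, 9.65 and 9.43 in treated cultures (0.70 ± 0.18, limma adjusted p = 0.0448), and lost its call without 7. Sema3c, a secreted semaphorin, was at 9.31, 9.23, 9.40, 9.36 and 9.23 in vehicle and at 9.56, 9.91, 10.28, 10.01 and 9.62 in treated cultures (0.57 ± 0.13, limma adjusted p = 0.0319). Its treated cultures spread more than its vehicle cultures (SD 0.29 against 0.08), and the call was lost without 7. Septin8 rose by 0.41 ± 0.10, but its other kept probe set, at a like signal, was at -0.49 ± 0.25, and Ints14 rose by 0.30 ± 0.07 with a dimmer probe set at -0.37 ± 0.24.

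Among the falls, bile acid genes moved at 2 points of the pathway. Cyp8b1, the sterol 12-alpha-hydroxylase that sets the ratio of cholic acid to other bile acids, was at 13.85, 13.77, 13.65, 13.76 and 13.94 in vehicle and at 13.46, 13.20, 13.20, 13.24 and 13.30 in treated cultures. The groups did not overlap, and it fell 1.43-fold (-0.51 ± 0.09, limma adjusted p = 0.00489), a call lost without vehicle replicates 4 and 5 together (-0.48, adjusted p = 0.0791). Abcb11, the bile salt export pump, was at 14.10, 14.06, 14.09, 14.05 and 14.25 in vehicle and at 13.91, 13.87, 13.92, 13.97 and 13.97 in treated cultures. It fell 1.13-fold without overlap (-0.18 ± 0.04, limma adjusted p = 0.0319), and the call was lost without 6 of the 10 single arrays. Cyp7a1, the rate-limiting enzyme, was at 10.73, 10.37, 10.39, 10.49 and 11.74 in vehicle and at 11.31, 10.10, 10.10, 10.12 and 10.03 in treated cultures. In each group 1 culture stood far above the rest, and the difference did not pass (-0.41 ± 0.25, adjusted p = 0.542). Slc10a1, the sodium-dependent importer of bile acids, was at 13.09, 13.11, 13.27, 13.31 and 13.40 in vehicle and at 13.20, 13.13, 12.83, 12.76 and 12.91 in treated cultures (-0.27 ± 0.11, adjusted p = 0.34). Of 15 measured genes of bile acid synthesis, 1 fell, 0 rose and 14 lay below 0 (median -0.15). Of 21 hepatocyte transporters, 1 fell, 0 rose and 11 lay below 0 (median -0.01). Among all genes 0.426% fell and 0.400% rose.

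P450 enzymes of the CYP2D family fell, with the limit that these genes are near-identical copies whose probes may take up signal from one another. Cyp2d3 was at 13.41, 13.29, 13.03, 13.40 and 13.30 in vehicle and at 12.76, 12.88, 12.67, 12.77 and 13.01 in treated cultures (-0.47 ± 0.08, limma adjusted p = 0.00431). Cyp2d2 was at 14.48, 14.50, 14.43, 14.67 and 14.44 in vehicle and at 14.14, 14.34, 14.21, 14.14 and 14.26 in treated cultures (-0.29 ± 0.06, limma adjusted p = 0.0269). Both had all treated cultures below all vehicle cultures, and Cyp2d4 was at -0.11 ± 0.07 (adjusted p = 0.627). The call of Cyp2d2 was lost without treated replicates 3 (-0.28, adjusted p = 0.0787) or 4 (-0.27, adjusted p = 0.0638) or vehicle replicate 4 (-0.24, adjusted p = 0.0974). They were the changed members of 20 constitutive P450 and flavin monooxygenase genes, of which 2 fell, 0 rose and 18 lay below 0 (median -0.10). The shares over all genes were 0.426% lower and 0.400% higher. The ethanol-inducible Cyp2e1 was at -0.09 ± 0.09 (adjusted p = 0.771), the fatty acid hydroxylase Cyp4a1 at -0.47 ± 0.15 (adjusted p = 0.16) and the male-specific Cyp2c11 at 0.13 ± 0.09 (adjusted p = 0.608). Of 15 CAR and PXR targets 0 changed, with Cyp3a18 at -0.22 ± 0.07 (adjusted p = 0.144), and of 31 conjugation enzymes 0 changed, with 23 below 0. Ces1e, a carboxylesterase from another family of near copies, fell by 0.48 on the log2 scale (SE 0.12, limma adjusted p = 0.0413), a call lost without 9 of the 10 single arrays.

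Of 42 genes of amino acid catabolism 3 fell and of 12 of gluconeogenesis and glycogen 1 fell, by small amounts, and with arrays centred on their medians 0 of either list passed. Gpt, the alanine aminotransferase, was at 14.20, 14.34, 14.44, 14.46 and 14.27 in vehicle and at 13.94, 14.10, 13.75, 14.09 and 14.15 in treated cultures (-0.34 ± 0.08, limma adjusted p = 0.0319). Agxt, which converts glyoxylate to glycine, was at 12.48, 12.24, 12.35, 12.22 and 12.62 in vehicle and at 12.21, 11.93, 11.92, 12.01 and 12.17 in treated cultures (-0.33 ± 0.08, limma adjusted p = 0.0359). In both the highest treated culture lay just below the lowest vehicle culture, and the calls were lost without 6 and 7 of the 10 single arrays. Ftcd, which ends histidine breakdown by passing a formimino group to folate, fell with overlapping arrays (-0.33 ± 0.08). These 3 were the members of the amino acid list that fell, while 0 rose and 36 lay below 0 (median -0.10). Among all genes 0.426% fell and 0.400% rose. Folate enzymes, for which there was no list, included the dehydrogenase Aldh1l1 (-0.31 ± 0.06) and Mthfd1 (-0.21 ± 0.05), both of which fell, the latter chosen after its values were seen. Pc, pyruvate carboxylase, was at 12.19, 12.13, 12.08, 12.30 and 12.34 in vehicle and at 11.92, 11.88, 11.91, 12.10 and 11.76 in treated cultures, of which replicate 4 overlapped vehicle (-0.29 ± 0.07, limma adjusted p = 0.0317). It was the 1 of 12 genes of gluconeogenesis and glycogen that fell, and Pck1, which controls the pathway, was at -0.14 ± 0.20 (adjusted p = 0.845). Gulo, the last enzyme of vitamin C synthesis, fell by 0.30 on the log2 scale (SE 0.06), and its second probe set was at -0.29 ± 0.12.

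Tspo, Pxmp2, Aqp8 and Hacl1, which are in none of the lists, also fell, and Hacl1 was chosen after its values were seen. Tspo, a cholesterol- and porphyrin-binding protein of the outer mitochondrial membrane, was at 15.25, 15.21, 15.43, 15.30 and 15.27 in vehicle and at 14.98, 15.02, 14.89, 15.02 and 14.99 in treated cultures. Its groups were clearly apart (-0.31 ± 0.06, limma adjusted p = 0.0168), and the call was lost without treated replicate 3 (-0.29, adjusted p = 0.0663). Pxmp2, a channel of the peroxisomal membrane (-0.31 ± 0.08), Hacl1, the peroxisomal lyase of fatty acid alpha-oxidation (-0.28 ± 0.06), and Aqp8, a water channel (-0.26 ± 0.05), fell without overlap. Of 27 PPARalpha targets and fatty acid oxidation genes 0 changed, although 24 lay below 0 (median -0.16) and 12 had an unadjusted p under 0.05, all lower. Among them were Hadh, a mitochondrial beta-oxidation dehydrogenase (-0.19 ± 0.05, adjusted p = 0.0673), and Bbox1, which makes carnitine (-0.47 ± 0.14, adjusted p = 0.13).

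Plasma protein and surface genes fell in part. Klkb1, plasma prekallikrein, was at 12.02, 12.83, 12.57, 12.59 and 12.50 in vehicle and at 11.87, 11.98, 11.73, 11.96 and 12.08 in treated cultures (-0.58 ± 0.13, limma adjusted p = 0.0317). Vehicle replicate 1 lay within the treated range, and the call was lost without 7 of the 10 single arrays. It was the 1 of 27 coagulation and complement genes that fell (3.70%, against 0.426% of all genes), with 23 of them below 0 (median -0.10). Hrg, histidine-rich glycoprotein (-0.37 ± 0.08), and Lcat, which esterifies cholesterol in lipoproteins (-0.23 ± 0.05), also fell. The class I histocompatibility gene RT1-S3 was at 12.51, 12.44, 12.33, 12.40 and 12.09 in vehicle and at 11.78, 11.93, 12.13, 11.87 and 11.86 in treated cultures (-0.44 ± 0.08, limma adjusted p = 0.00489). Its 3 other kept probe sets were at -0.37 ± 0.07, -0.31 ± 0.11 and -0.41 ± 0.08, although genes of this family are too alike to be assigned with certainty. RT1-Db1, a class II beta chain, fell by 0.73 on the log2 scale (SE 0.17, limma adjusted p = 0.0319), from 10.81, 10.74, 11.07, 10.84 and 10.79 to 10.43, 9.82, 9.54, 10.57 and 10.24. Class II genes are typical of antigen-presenting cells, whose list of Kupffer cell and macrophage markers had 0 of 12 changed and a median of -0.06. Of 23 interferon-stimulated genes 0 changed.

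Genes of other roles completed the falls. Lrrc8d, a subunit of the volume-regulated anion channel, was at 12.79, 12.56, 12.42, 12.77 and 12.51 in vehicle and at 12.02, 12.18, 12.10, 12.28 and 12.26 in treated cultures (-0.44 ± 0.07, limma adjusted p = 0.00346). Nuak2, a stress-responsive kinase related to AMPK, was at 9.89, 9.53, 10.01, 9.91 and 9.99 in vehicle and at 9.41, 8.20, 8.67, 8.88 and 9.37 in treated cultures (-0.96 ± 0.19, limma adjusted p = 0.0213). Neither gene's groups overlapped, and the call of Nuak2 was lost without treated replicate 2 (-0.78, adjusted p = 0.0637), treated replicate 3 (-0.90, adjusted p = 0.0718) or vehicle replicate 4 (-0.95, adjusted p = 0.0557). Kank1, an actin-regulating scaffold, fell from 11.91, 11.82, 11.81, 11.79 and 12.23 to 11.69, 11.44, 11.44, 11.58 and 11.43 (-0.39 ± 0.07, limma adjusted p = 0.00618). Synrg, a protein of clathrin-coated vesicles, was at 13.04 ± 0.04 in vehicle and 12.72 ± 0.04 in treated cultures (SD, n = 5; log2 change -0.32 ± 0.06, limma adjusted p = 0.00498), with all treated arrays below all vehicle arrays. Its much dimmer second probe set was at 0.16 ± 0.22. The transcription factor Cebpb fell by 0.18 on the log2 scale (SE 0.04, limma adjusted p = 0.0372), the only change among 31 genes of the integrated stress response, and its relative Cebpa was at -0.37 ± 0.11 (adjusted p = 0.128). Hspa5, the chaperone BiP, was at 15.58, 15.62, 15.63, 15.75 and 15.51 in vehicle and at 15.36, 15.46, 15.40, 15.45 and 15.50 in treated cultures (-0.18 ± 0.04, limma adjusted p = 0.0317), the only change among 25 endoplasmic reticulum genes. The calls of Cebpb and Hspa5 were each lost without 7 of the 10 single arrays.

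The largest falls by size were of dim genes. Ica1l was at 7.94, 8.13, 8.55, 7.42 and 8.41 in vehicle and at 5.20, 5.38, 7.81, 7.34 and 5.85 in treated cultures (-1.77 ± 0.38, limma adjusted p = 0.0263). Ccl3, a macrophage chemokine that is not on the chemokine list above, was at 8.66, 8.30, 8.86, 8.58 and 8.87 in vehicle and at 6.71, 6.85, 5.59, 7.85 and 8.38 in treated cultures (-1.58 ± 0.38, limma adjusted p = 0.0408). In both the groups overlapped and the treated mean lay under 8.09, the level (log2) of the 40th percentile averaged over arrays. The calls were lost without 4 and 8 of the 10 single arrays.

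Several lists of stress, sterol and lysosomal genes held no limma calls at this dose, while those of the integrated stress response (Cebpb), endoplasmic reticulum chaperones (Hspa5), NRF2 targets (Nqo1) and LXR targets (Lcat) held 1 each. In the lists of cholesterol synthesis (17 genes), lysosomal proteins (36), the vacuolar proton pump (16), autophagy (24), aminoacyl-tRNA synthetases (17), p53 targets (14), the proteasome (30), the respiratory chain (34), heat shock (15) and the cell cycle (23), 0 genes changed, and their medians lay between -0.08 and 0.06. As 0.826% of all genes changed, 0 calls in lists of this size do not set them apart from other genes. In these lists 1, 7, 3, 2, 2, 2, 4, 7, 3 and 2 genes had an unadjusted p under 0.05. Over all genes the share was 11.8% (6.22% higher and 5.56% lower). Those of the respiratory chain were all lower. Those of cholesterol synthesis, the proton pump, autophagy and the cell cycle were all higher, and the other lists held both directions. Ddit3, the stress factor CHOP, was at 11.83, 11.92, 11.77, 11.92 and 11.45 in vehicle and at 11.40, 12.07, 11.86, 11.95 and 11.64 in treated cultures (0.00 ± 0.12, adjusted p = 0.995). Its ranges were nearly the same in both groups. Trib3, which CHOP induces, was at -0.04 ± 0.11 (adjusted p = 0.941), Cyp51 of cholesterol synthesis at 0.26 ± 0.09 (adjusted p = 0.186), the lysosomal membrane protein Lamp1 at -0.03 ± 0.05 (adjusted p = 0.842) and Hmox1, heme oxygenase, at -0.15 ± 0.08 (adjusted p = 0.512). The 95% interval of the change lay within 1.5-fold either way for 75.4% of genes and within 2-fold for 89.5%.

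**Figure D3:**
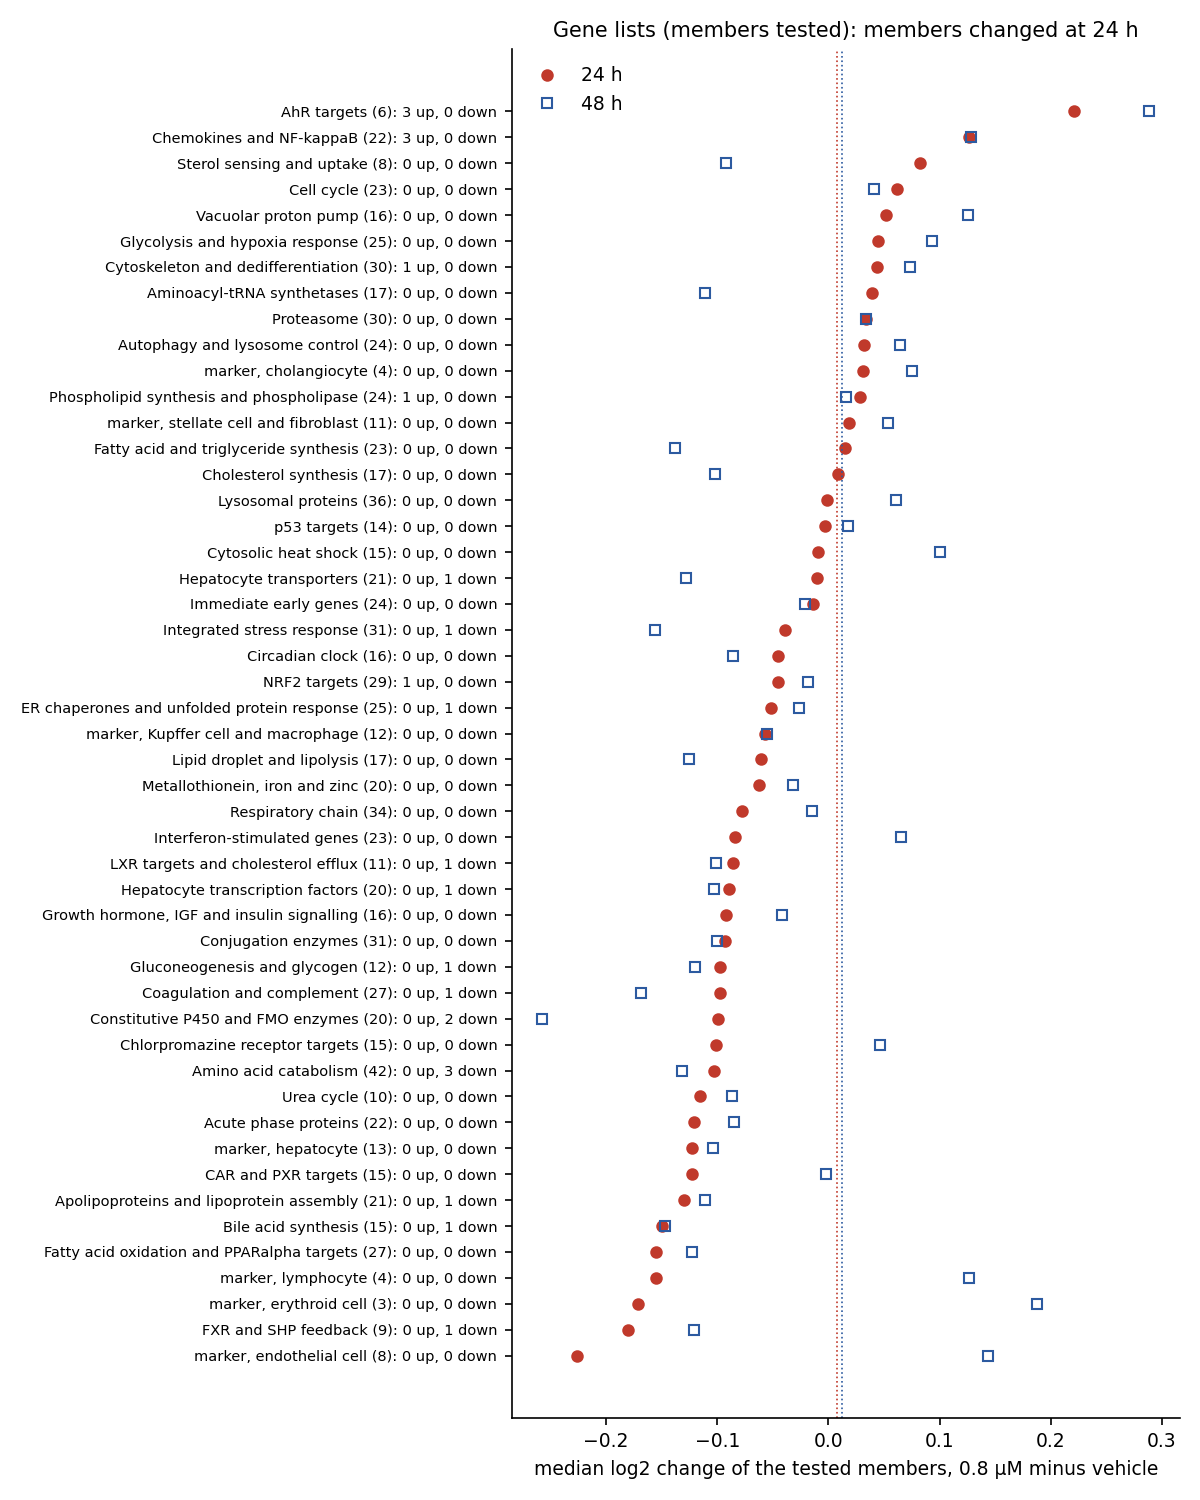
Median log2 change of the tested members of each gene list at 0.8 µM against vehicle, at 24 h (red points) and in the separate arrays at 48 h (open squares); dotted lines give the medians of all genes, and labels give the number of members tested and changed at 24 h. The AhR list lies highest at both times (0.22 and 0.29), and lists of hepatocyte functions such as bile acid synthesis lie below 0 (-0.15 and -0.15).

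Genes ranked by their mean signal in the vehicle arrays had a median change of -0.04 in the highest 10% and 0.12 in the lowest 10%. The vehicle mean also enters the change, so spread between the vehicle arrays alone can give such a slope. The ranking therefore cannot show whether the change depends on level. Of 13 hepatocyte markers 0 changed and 12 lay below 0, with a median of -0.12. After quantile normalization 8 lay below 0 and the median was -0.01. Albumin (Alb) was at 16.60, 16.46, 16.77, 17.04 and 16.64 in vehicle and at 16.39, 16.35, 16.27, 16.78 and 16.57 in treated cultures (-0.23 ± 0.13, adjusted p = 0.523). Under the same normalization the medians were -0.09 for bile acid synthesis, -0.14 for fatty acid oxidation, -0.10 for amino acid catabolism, -0.10 for constitutive P450 enzymes and 0.24 for AhR targets. The part that signal level plays in these medians was not tested.

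The 10 arrays at 48 h came from other wells, so they give a second view of the same dose. Of the 95 genes, 37 also changed at 48 h, all in the direction they took at 24 h. They are 38.9% of the 24 h genes and 9.66% of the 383 genes that changed at 48 h (3.33% of all tested, 183 higher, 1.59%, and 200 lower, 1.74%). In all, 86 of the 95 (90.5%) kept their sign, against 59.0% of all tested genes. The genes higher at 24 h had a median of 0.32 there and 0.15 at 48 h, with 41 of 46 above 0, and the lower genes -0.31 and -0.20, with 45 of 49 below 0.

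Among the AhR targets, Cyp1a1 was at 0.52 ± 0.09 and Cyp1a2 at 0.77 ± 0.07 at 48 h (limma adjusted p = 0.000693 and 3.04e-08), and Nqo1 was at 0.35 ± 0.05 at both times. Hmgn3 stood at 0.42 ± 0.05, H2az1 at 0.20 ± 0.04, Il1r1 at 0.35 ± 0.07 and Il1r2 at 1.13 ± 0.13, all changed at 48 h. Cyp2d3 (-0.49 ± 0.08), Synrg (-0.40 ± 0.06), RT1-S3 (-0.39 ± 0.08), Abcb11 (-0.25 ± 0.04), Klkb1 (-0.56 ± 0.13), Pc (-0.49 ± 0.07) and Hrg (-0.72 ± 0.08) were changed there too. Others were not: Cyp8b1 was at -0.22 ± 0.09 (adjusted p = 0.224), Lrrc8d at -0.17 ± 0.07 (adjusted p = 0.25), Cxcl1 at 0.13 ± 0.13 (adjusted p = 0.723), Matr3 at 0.02 ± 0.06 (adjusted p = 0.926) and Nuak2 at -0.05 ± 0.19 (adjusted p = 0.946). The dim Ica1l (0.35 ± 0.38) and Ccl3 (0.18 ± 0.38) lay on the other side of 0. The difference of the effects between the times, tested by an interaction term, passed for 0 of the 95 genes and for 8 of all genes (0.0695%, and 7.45% at an unadjusted p under 0.05), so a call at 1 time alone does not show that the times differ.

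**Figure D4:**
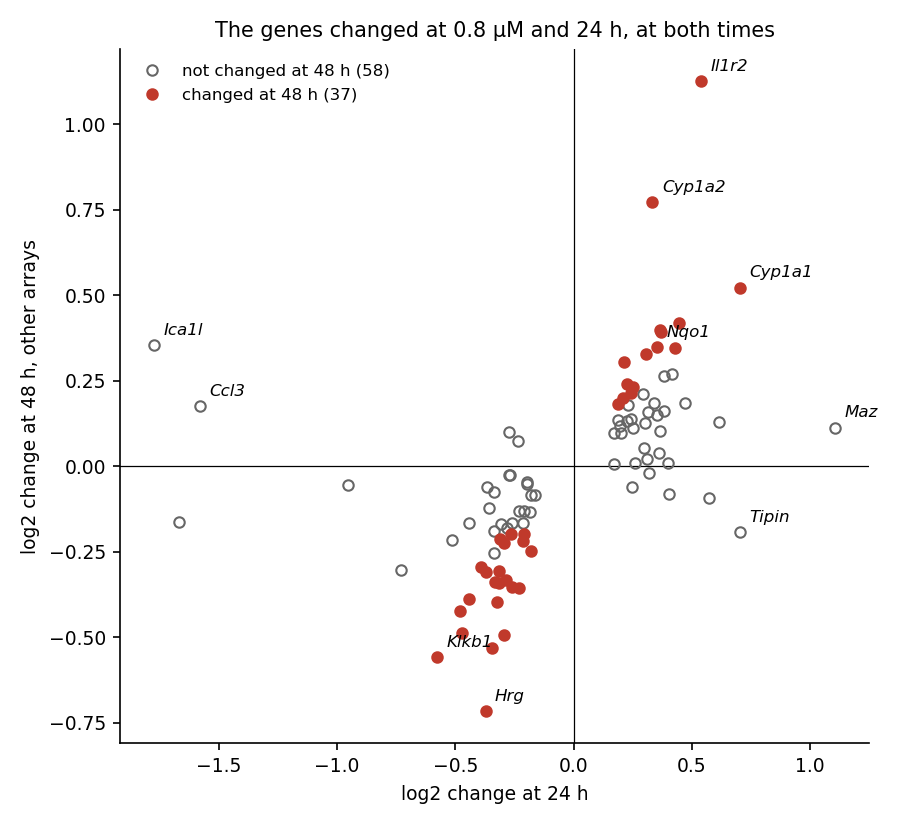
Log2 change against vehicle at 24 h (horizontal axis) and in other wells at 48 h (vertical axis) for the 95 genes changed at 0.8 µM and 24 h, with the 37 that also changed at 48 h filled in red. These 37 lie in the lower left and upper right corners, and the genes with the largest changes at 24 h (Ica1l, Ccl3 and Maz) lie near 0.35, 0.18 and 0.11 at 48 h.

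The 8 genes whose effect differed between the times were all lower at 48 h relative to 24 h, and none of them was called at 24 h. Cyp3a18 was at -0.22 ± 0.07 at 24 h and -0.76 ± 0.07 at 48 h (difference -0.53, limma adjusted p = 0.0167). The male-specific Cyp2c11 was at 0.13 ± 0.09 and -0.49 ± 0.09 (difference -0.63, limma adjusted p = 0.0324), and the complement component C9 at 0.19 ± 0.08 and -0.43 ± 0.08 (difference -0.62, limma adjusted p = 0.0148). Sult1e1, an estrogen sulfotransferase, was at -0.16 ± 0.16 and -1.36 ± 0.16, and the remaining genes were Cflar, Omd, Cab39 and Cryab.

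At 20 µM and 24 h, against the same 5 vehicle arrays, 2738 genes changed (23.8%). Because both doses share their vehicle arrays, the values for the members are set side by side and their likeness is not counted as a result. The direct comparison of 20 with 0.8 µM, in which the vehicle arrays cancel but the 0.8 µM arrays that chose the members enter, passed for 1797 of all genes (15.6%) and for 49 of the 95 (51.6%). Of the 49, 43 lay farther from vehicle at 20 µM and 6 lay nearer. Both distances were taken from the same vehicle arrays that helped to choose the members. The split was not counted over all genes, so it only describes these 49.

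The genes that lay farther included Cyp8b1 (-0.51 at 0.8 µM and -1.81 at 20 µM), Cyp2d3 (-0.47 and -1.33), Klkb1 (-0.58 and -1.52), Pc (-0.29 and -1.08) and Nqo1 (0.35 and 1.03). Their differences had limma adjusted p values of 2.52e-11, 4.61e-09, 2.77e-06, 5.83e-10 and 9.74e-11. Cyp1a1 was at 0.70 and 0.96 (difference 0.26, limma adjusted p = 0.0499), Cyp1a2 at 0.33 and 0.54 (difference 0.20, limma adjusted p = 0.0467) and Hmgn3 at 0.45 and 0.79 (difference 0.34, limma adjusted p = 1.15e-05). The 6 that lay nearer to vehicle at the higher dose were Lrrc8d (-0.44 and -0.07, adjusted p of the difference 0.000466), Slc16a6, a monocarboxylate carrier (-0.23 and 0.06, 0.000486), Ifi27l2b (-0.23 and -0.01, 0.00835), Nuak2 (-0.96 and -0.39, 0.0438) and the dim genes Ica1l (-1.77 and -0.37, 0.00981) and Ccl3 (-1.58 and -0.32, 0.0225). At 20 µM none of these 6 was called against vehicle, with adjusted p values from 0.158 for Nuak2 to 0.913 for Ifi27l2b.

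For the other 46 genes the doses did not differ beyond the test. H2az1 was at 0.21 and 0.22 (difference 0.01 ± 0.04), Tspo at -0.31 and -0.37 (difference -0.06 ± 0.06), Agxt at -0.33 and -0.41 (difference -0.07 ± 0.08), Kank1 at -0.39 and -0.45 (difference -0.06 ± 0.07) and Cxcl1 at 0.61 and 0.70 (difference 0.08 ± 0.13). A p above the threshold does not show that the doses act alike.

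**Figure D5:**
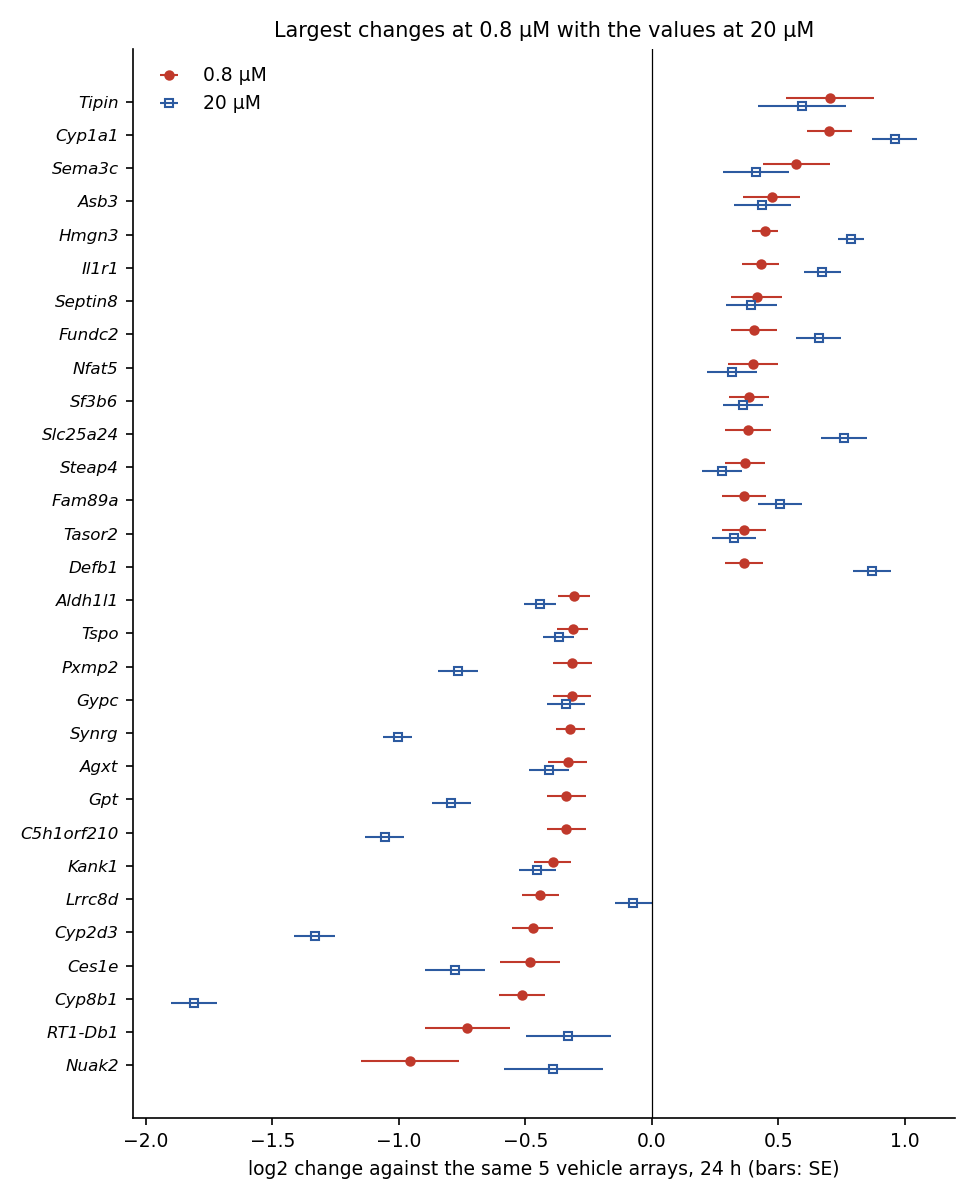
Log2 change ± SE at 0.8 µM (red) and 20 µM (blue squares) against the same 5 vehicle arrays at 24 h, for the 15 genes that rose most and the 15 that fell most at 0.8 µM without overlap of treated and vehicle arrays. Cyp8b1, Cyp2d3 and Synrg lie farther left at 20 µM, while Lrrc8d lies near 0 there (-0.07).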

How the data were processed

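RNA of 1 well per array was labelled as biotin cRNA and hybridised to a rat oligonucleotide array. Per the submitters' processing notes MAS5 was used, in a version that is not given. The authors deposited linear signal intensity per probe set. From the values, every array had been brought to a trimmed mean of 1500.0. Of 31099 probe sets 57 were controls. Arrays were grouped by the dose and time entries of the labels, with 5 per group.

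Signals were floored at 16 and log2 transformed without further normalization. The filter kept 21226 probe sets that exceeded their array's 40th percentile on 5 or more arrays. The platform annotation gave 20826 probe sets 1 symbol, 436 several and 9780 no entry. For each gene the kept probe set of highest mean was used, which gave 11503 genes, and a gene is dim where its lower group mean lies under 8.09. limma 3.58.1 in R 4.3.3 fitted 1 mean per group over all 30 arrays. eBayes used a trend, p-values were adjusted by Benjamini-Hochberg within a comparison, and the code was tested on simulated data. A second fit used all 31042 probe sets. The number of arrays limits precision.

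The members and gene lists were chosen with earlier results of these data known. Genes named are the 15 largest rises and falls among changed genes without overlap and the 12 of smallest p in each direction. Added to them are the 3 of smallest p in each list and a fixed panel. Further changed genes were chosen after their values were seen. Some unchanged genes were also named outside these rules, among them Tiparp, Cyp1b1, Aldh3a1, Gclm, Gclc, Txnrd1, Tnfaip3, Sod2, Cyp2d4, Cyp2e1 and Pck1. A gene known by a locus number only (1) was counted and not named. Array numbers follow the same order of groups in every run of 6, so position within a run cannot be told apart from dose. Alternatives covered the floor, filter, normalization, spread model, array weights, arrays in the fit, array order, probe set summary, threshold and leaving out arrays.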

Additional observations from a re-analysis of the deposited data

Results flagged for a closer look

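A difference between the times was found, by the interaction of dose and time in limma, for 8 genes. The 5 with the largest such differences are given here. The effect of 0.8 µM at 48 h minus that at 24 h was -1.39 for Cflar, an inhibitor of death receptor signalling (adjusted p = 0.0148), -1.19 for Sult1e1, an estrogen sulfotransferase (adjusted p = 0.0186), -1.16 for Omd, a matrix proteoglycan (adjusted p = 0.00304), -0.63 for Cyp2c11 (adjusted p = 0.0324) and -0.62 for C9 (adjusted p = 0.0148). The second kept probe set of Cflar was at -0.07 ± 0.23 at 24 h, against 0.64 ± 0.17 for the first.

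Among 124 genes looked at, each in 2 groups of 5 arrays, 15 of 248 groups (6.05%) held 1 log2 signal far from the other 4, and chance alone gives such a value in about 1 in 20 groups. Vehicle replicate 5 was high for Cyp7a1 (11.735, the others 10.373 to 10.731), Abcb11 (14.25), Bbox1 (13.907) and Kank1 (12.229) and low for Sult1e1 (10.181). Treated replicate 1 was high for Cyp7a1 (11.309, the others 10.027 to 10.124) and Hrg (14.66) and low for Hmox1 (14.722) and Pakap (12.687). The remaining values were vehicle replicate 3 of Amacr (11.797) and Tasor2 (9.8727), vehicle replicate 4 of Ddx39a (11.842), both replicates 2 of Eed (11.043 in vehicle and 11.212 in treated cultures) and vehicle replicate 2 of Nuak2 (9.5255).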

How the results depend on the processing

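The 95 changed genes at 0.8 µM and 24 h became 12 with arrays centred on their medians, 52 without a trend, 7 with only the arrays compared in the fit, 22 with the 24 h arrays, 177 at an adjusted p under 0.10, 16 to 147 without single arrays and 11 without vehicle replicates 4 and 5, an alternative added after the data had been seen. The other fits with all 10 arrays gave 78 to 125. The 34 probe sets became 2 (centred), 3 (no trend), 19 (robust), 21 (array weights), 6 (arrays compared), 5 (24 h arrays), 56 (array number), 56 (runs of 6 arrays as a block), 116 (adjusted p under 0.10), 6 to 90 without single arrays and 5 without those 2 vehicle arrays. The 383 genes at 48 h became 173 (centred), 659 (adjusted p under 0.10) and 199 to 384 without single arrays. The 8 genes that differed between the times became 4 (centred), 5 (no trend), 4 (arrays compared), 13 (runs as a block) and 4 to 13 without single arrays. The counts at 20 µM and for 20 against 0.8 µM stayed within 1.5 times. Of the 94 named changed genes 80 lost their call in more than 5 alternatives. Ddit3, at 0.00, changed sign when centred (-0.00105), after quantile normalization (-0.00832) and without treated replicate 2 (-0.0675), 3 (-0.0165) or 4 (-0.0372), vehicle replicate 5 (-0.0778) or both vehicle arrays (-0.0590). The mean over probe sets turned Ints14 (-0.0379), Septin8 (-0.0352) and Sqstm1 (0.0441). Trib3 turned without vehicle replicate 1 (0.0344, its leave-one-out range reaching down to -0.0859) and Rragd without both vehicle arrays (-0.0198). Apart from the added or removed arrays and probe sets, the cause was not tested. The labels give no replicate numbers that groups share, but every run of 6 array numbers holds 1 array of each group, and with these runs as a block the 95 genes became 125 (62 higher and 63 lower). The labels do not say that arrays of a run share a batch. Depth in the sense of reads does not apply, and for 1229 dim genes (10.7%) the signal over background limits what could be called.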

Other observations

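Outside the gene lists and the comparison of doses, 25 other kept probe sets belonged to 20 of the changed genes. Of these, 17 had the sign of the gene's own probe set, 8 of them with an unadjusted p under 0.05, and 8 had the opposite sign, 0 of them with an unadjusted p under 0.05 in limma. Ceacam1, a bile canalicular adhesion molecule, was at 0.25 ± 0.06 with its other probe sets at 0.68 ± 0.21 and 0.23 ± 0.10. The 5 kept probe sets of Cebpa, which did not change, lay between -0.46 and -0.23. Of 34 probe sets that changed in the fit of all probe sets, 29 carried 1 gene name, 2 carried more and 3 have no entry in the annotation used here.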
